A study of Mus musculus with 16 samples.

Results

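The 8 genes described here encode the major histocompatibility complex (MHC) class II system of the mouse. They are Cd74, H2-Aa, H2-Ab1, H2-Eb1, H2-DMa, H2-DMb1, H2-Ob and Ciita, chosen by name and matched by Ensembl identifier to 8 of the 49671 gene rows of a raw count table. Bulk RNA sequencing was done on hippocampus of 8-month-old female mice in 16 libraries, 4 in each of 4 genotype groups. WT mice carried neither change. p16KO mice lacked p16, a cell cycle inhibitor encoded by Cdkn2a. PS19 mice carried the PS19 tauopathy transgene, known to express mutant human tau from the prion protein promoter, with p16 intact. PS19_p16KO mice carried the transgene and lacked p16. The labels give neither the strain background nor the p16 allele, and do not state that each library of a group stems from its own animal, which is why the p-values measure only the spread between libraries. The design crosses the transgene with the p16 knockout, and the comparisons ask how each alters RNA levels with and without the other.

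MHC class II molecules are pairs of an alpha and a beta chain that present peptides, mostly from endocytosed proteins, to CD4 T cells. New pairs are held by the invariant chain, the product of Cd74, which fills the peptide groove and guides them to endosomes. There proteases degrade it, H2-DM exchanges its last fragment for a peptide, and H2-O restrains H2-DM. Ciita encodes the transactivator that switches these genes on, and in the brain their products are known mainly from border macrophages, dendritic cells and activated microglia.

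Of the 8 genes, 6 lie among 10 class II genes of a 252 kb stretch of chromosome 17 (GRCm38, 34092340 to 34344645). The chains are H2-Aa (ENSMUSG00000036594, 34282744 to 34287823, minus strand), H2-Ab1 (ENSMUSG00000073421, 34257689 to 34269419, plus strand) and H2-Eb1 (ENSMUSG00000060586, 34305867 to 34316674, plus strand). The H2-DM chains are H2-DMa (ENSMUSG00000037649, 34119541 to 34139101) and H2-DMb1 (ENSMUSG00000079547, 34153072 to 34160230), and the H2-O beta chain is H2-Ob (ENSMUSG00000041538, 34238903 to 34254414), all on the plus strand. Ciita (ENSMUSG00000022504) lies on chromosome 16 at 10480059 to 10528418, and Cd74 (ENSMUSG00000024610) on another chromosome. All 8 are protein-coding.

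Class II promoters are known for an X box and a Y box, bound by the RFX complex and by NF-Y, on which CIITA assembles. RefSeq promoter windows (GRCm38.p6, 250 bases before to 50 after the start) were at hand for 5 of the 8 genes and were searched on both strands for CNNGNAAC followed by GATTGG, with the first letter of the second lying 20 to 45 bases after that of the first. The letters were chosen after reading these windows, so the matches only describe them. H2-Aa, H2-Eb1, H2-Ob and H2-DMb1 held the pair, and the 2 windows of H2-DMa did not. Over all windows 113 of 32851 held the pair (0.344%), 39.1% held the first motif and 16.1% held the second, and the motifs do not overlap. The following stretches, 5′ to 3′ on the strand of the gene with the X box letters and then the Y box letters in capitals, show how alike the arrangement is in an I-A chain and an I-E chain, the 2 isotypes of presenting pairs, and in the H2-O beta chain. They lie at chr17:34287855-34287927 (minus strand), chr17:34305753-34305824 and chr17:34238795-34238864 (plus strand).
H2-Aa: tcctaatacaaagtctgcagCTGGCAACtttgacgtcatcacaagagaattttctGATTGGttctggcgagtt
H2-Eb1: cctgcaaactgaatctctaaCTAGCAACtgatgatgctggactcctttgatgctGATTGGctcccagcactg
H2-Ob: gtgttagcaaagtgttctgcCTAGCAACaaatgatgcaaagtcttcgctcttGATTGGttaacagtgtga
The first letters of the boxes were 35 bases apart in H2-Aa, 34 in H2-Eb1 and 32 in H2-Ob, and 35 in H2-DMb1, whose boxes fall inside the longer gene model and are not printed. H2-Eb1 and H2-Ob hold the same 8 letters in the X box, and H2-DMb1 and H2-Aa other ones.

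Gene counts per library ran from 18485552 to 22311322. Levels are given in CPM, gene counts relative to a common library size with TMM factors. Cdkn2a had 8 counts in all WT libraries together, 3 in p16KO, 18 in PS19 and 2 in PS19_p16KO, too few to check single libraries. Prnp, whose promoter drives the transgene, had 988 to 1076 CPM in the libraries without the transgene and 1501 to 1964 CPM in those with it. RNA of the choroid plexus, a tissue beside the hippocampus, was high in WT library 1, p16KO library 4 and PS19_p16KO library 3, where 10 of its marker genes summed to 885, 3509 and 5901 CPM, against 40.4 to 209 CPM in the other 13. No PS19 library was among these 3. Each of the 3 was the highest library of its group for Cd74, H2-Aa, H2-Ab1 and H2-DMb1, so results that rest on them are also given without them.

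In PS19 hippocampus Cd74 and H2-Ob rose against WT, and the other 6 of the 8 class II genes did not pass the test. Differences were tested with edgeR's quasi-likelihood test on the counts of all 16 libraries, with Benjamini-Hochberg adjustment over the 16372 genes that passed a filter on low counts. The 2 called genes compare with 1.56% of all tested genes called higher. Without PS19 library 3 there were 4, when 2.55% of all tested genes were called higher. Without PS19 library 1, PS19 library 2 or WT library 4 there were none, against 0.724%, 0.756% and 0.978% of tested genes. All 8 fitted changes were positive, against 48.3% of tested genes, and their median was 1.21 on the log2 scale against -0.01 over all tested genes. The 2 were also the genes whose PS19 libraries all lay above all WT libraries, which 3.57% of tested genes did. The 8 genes were chosen with earlier results of these data known. H2-Ob and Ciita passed the low-count filter mostly through PS19 libraries, so these shares only describe the 8 genes. In the hippocampus of PS19_p16KO mice, 1 of the 8 genes, H2-Ob, fell against PS19, where 0.776% of tested genes were called lower.

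**Figure D1:**
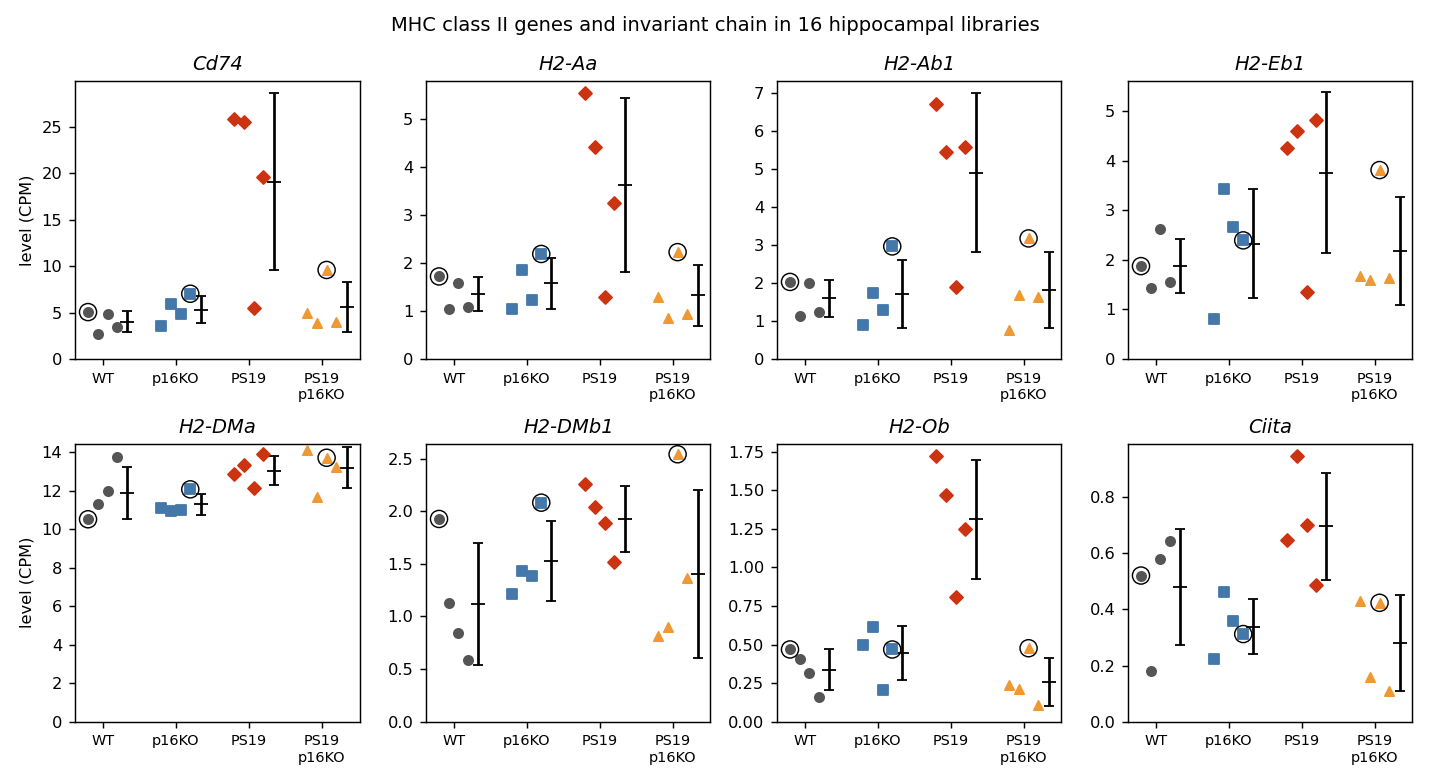
Level in CPM (vertical axis, linear, from 0, with its own scale per gene) of the 8 genes in each of the 16 libraries, by genotype group. Points are libraries, ticks with bars are the group mean ± SD (n = 4), and rings mark the 3 libraries rich in choroid plexus RNA. For Cd74, 3 PS19 libraries sit between 19.5 and 25.8 CPM while the fourth, at 5.44 CPM, sits among the other groups.

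Cd74 had 5.05, 2.65, 4.90 and 3.49 CPM in WT libraries 1 to 4, and 3.55, 5.88, 4.82 and 7.03 CPM in p16KO. It had 25.8, 25.5, 5.44 and 19.5 CPM in PS19, and 5.01, 3.93, 9.58 and 3.98 CPM in PS19_p16KO. PS19 libraries 1, 2 and 4 lay above all 12 libraries of the other groups, and PS19 library 3 lay just above the highest WT library but below p16KO libraries 2 and 4 and PS19_p16KO library 3. The group means were 4.02 CPM ± 1.15 (SD, n = 4) in WT, 5.32 ± 1.48 in p16KO, 19.1 ± 9.54 in PS19 and 5.63 ± 2.68 in PS19_p16KO. Against WT, Cd74 rose 4.76-fold in PS19 (log2 2.25 ± 0.45 SE, edgeR adjusted p = 0.0237). The call ended without WT library 2 (adjusted p = 0.10), 3 (0.0625) or 4 (0.0977) or PS19 library 1 (0.0863), 2 (0.0836) or 4 (0.0508). It also ended with limma-voom (adjusted p = 0.0515), with a batch term from the first digit of the suffix in the library names (0.0611) and with only the WT and PS19 libraries in the fit (0.189), while the fitted change stayed between 2.07 and 2.56 over all libraries left out in turn.

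For the chains of the presenting pairs PS19 library 3 was again the lowest of its group. H2-Aa, the alpha chain of the I-A isotype, had 1.72, 1.03, 1.58 and 1.07 CPM in WT and 5.54, 4.41, 1.29 and 3.26 CPM in PS19. In p16KO it had 1.03, 1.84, 1.23 and 2.19 CPM, and in PS19_p16KO 1.29, 0.850, 2.22 and 0.927 CPM. Again PS19 libraries 1, 2 and 4 were above all others, and library 3 lay within the WT range. The fitted change against WT was 1.42 ± 0.38 on the log2 scale, which missed the threshold (edgeR adjusted p = 0.0741). It passed without PS19 library 3 (log2 1.70, adjusted p = 0.00339) and without PS19_p16KO library 3 (log2 1.42, adjusted p = 0.0412). With DESeq2 on all 16 libraries it also passed (DESeq2 adjusted p = 0.0165).

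H2-Ab1, the beta chain that pairs with H2-Aa, had 2.03, 1.12, 2.0 and 1.23 CPM in WT and 6.72, 5.45, 1.89 and 5.59 CPM in PS19. It had 0.899, 1.74, 1.28 and 2.97 CPM in p16KO, and 0.763, 1.70, 3.18 and 1.64 CPM in PS19_p16KO. Here too only PS19 library 3 overlapped WT. The fitted change was 1.62 ± 0.44 (adjusted p = 0.0906), and 1.89 without PS19 library 3 (adjusted p = 0.0105). With DESeq2 on all 16 libraries H2-Ab1 also passed (DESeq2 adjusted p = 0.0077). H2-Eb1, the beta chain of the I-E isotype, had 1.87, 1.44, 2.63 and 1.56 CPM in WT, and 4.25, 4.60, 1.35 and 4.83 CPM in PS19. It had 0.809, 3.43, 2.67 and 2.39 CPM in p16KO, and 1.67, 1.59, 3.81 and 1.64 CPM in PS19_p16KO. PS19 library 3 was below every WT library for this gene, and the fitted change was 1.0 ± 0.43 (adjusted p = 0.438). The alpha chain that would pair with H2-Eb1, H2-Ea-ps, a polymorphic pseudogene in the annotation, had 0 counts in all 16 libraries.

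H2-DMa and H2-DMb1, the chains of the peptide exchanger, differed in their pattern over the libraries. H2-DMa lay between 10.5 and 14.1 CPM in every library, with 11.9 ± 1.37 CPM in WT, 11.3 ± 0.528 in p16KO, 13.05 ± 0.746 in PS19 and 13.2 ± 1.06 in PS19_p16KO. Its fitted change in PS19 against WT was 0.14 ± 0.09 (adjusted p = 0.741), with the smallest SE of the 8 genes, and its groups overlapped. H2-DMb1 had 1.93, 1.12, 0.842 and 0.590 CPM in WT and 2.26, 2.04, 1.89 and 1.52 CPM in PS19. In p16KO it had 1.21, 1.43, 1.38 and 2.08 CPM, and in PS19_p16KO 0.810, 0.903, 2.54 and 1.36 CPM. PS19 libraries were close to each other, and of the WT libraries only library 1, rich in choroid plexus RNA, reached into their range. Outside WT, p16KO library 4 (2.08 CPM) lay within that range and PS19_p16KO library 3 (2.54 CPM) above it, both also rich in choroid plexus RNA. The fitted change was 0.78 ± 0.35 (adjusted p = 0.480), and 1.15 (adjusted p = 0.0447) when the 3 libraries with much choroid plexus RNA were left out.

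The counting limits these 2 genes and Ciita. Of the 50-base windows of H2-DMa's exons, 8.43% are shared with Brd2, a gene on the opposite strand at 233 to 242 CPM in the group means, and whether the counting used strand is not stated. How much of the H2-DMa count comes from Brd2 was not tested. H2-DMb1 shares 22.7% of its windows with its copy H2-DMb2, which had 0 to 0.543 CPM per library. Cd74, H2-Ab1, H2-Eb1 and H2-Ob shared no such window with another gene, and H2-Aa shared 0.514%. Ciita shared 1.46% with Dexi, a gene on the opposite strand at 32.9 to 35.3 CPM in the group means. Ciita itself had group means of 0.280 to 0.696 CPM, and how much of its count comes from Dexi was not tested.

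H2-Ob encodes the beta chain of H2-O, the restraint on H2-DM, known best from B cells. It was scarce, with 0.469, 0.405, 0.316 and 0.161 CPM in WT and 0.494, 0.614, 0.205 and 0.468 CPM in p16KO. It had 1.72, 1.47, 0.808 and 1.25 CPM in PS19, and 0.238, 0.212, 0.477 and 0.109 CPM in PS19_p16KO. All 4 PS19 libraries, the third included, lay above all 12 others, whose highest was 0.614 CPM. The share of tested genes that did so against all 12 was not computed, and against WT alone it was 3.57%. The counts behind these levels were 27 in WT, 36 in p16KO, 101 in PS19 and 20 in PS19_p16KO.

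Against WT, H2-Ob rose 3.81-fold in PS19 (log2 1.93 ± 0.40 SE, edgeR adjusted p = 0.0128). Of the 5 libraries in which it reached the level of the low-count filter (0.524 CPM), 4 were PS19 libraries, so it entered the test through the group in which it was high. With no filter its adjusted p was 0.00571. The call ended without WT library 4 (adjusted p = 0.0602), PS19 library 1 (0.0700) or PS19 library 2 (0.0553). Its alpha chain partner H2-Oa had 0.338 CPM ± 0.242 in WT and 0.701 ± 0.493 in PS19, with overlapping libraries (log2 1.02 ± 0.61, adjusted p = 0.673).

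Ciita, the transactivator, had 0.521, 0.180, 0.579 and 0.644 CPM in WT and 0.646, 0.948, 0.701 and 0.488 CPM in PS19. It had 0.225, 0.461, 0.359 and 0.312 CPM in p16KO, and 0.429, 0.159, 0.424 and 0.109 CPM in PS19_p16KO. WT and PS19 overlapped, and the fitted change was 0.56 ± 0.42 on the log2 scale (adjusted p = 0.782). The levels rest on 37 counts in WT and 54 in PS19, and the part of Dexi in them was not tested. Ciita reached the filter level in 5 libraries, of which 3 were PS19 and 2 were WT, so it too entered the test in part through PS19.

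**Figure D2:**
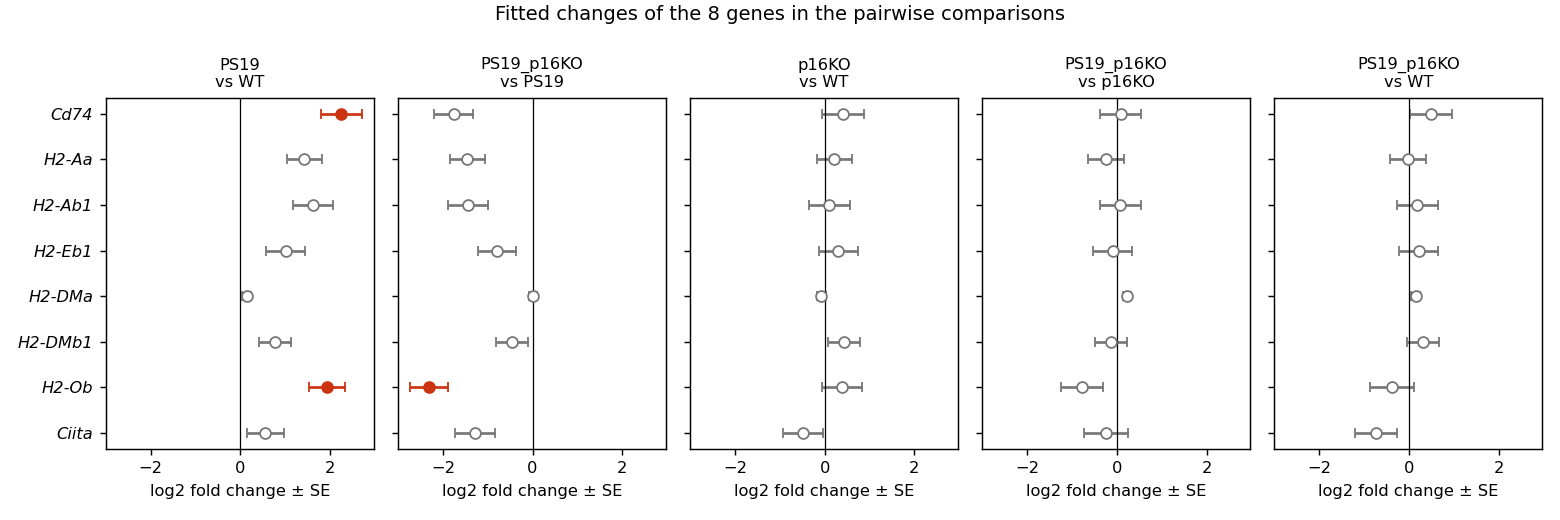
Fitted log2 fold change ± SE (horizontal axis) of the 8 genes in the 5 pairwise comparisons, 1 panel each, with filled points for genes past an edgeR adjusted p of 0.05. Cd74 at 2.25 and H2-Ob at 1.93 are filled in PS19 vs WT, H2-Ob at -2.31 in PS19_p16KO vs PS19, and no point in the other 3 panels.

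Between PS19_p16KO and PS19, which both carry the transgene and differ in p16, 7 of the 8 fitted changes were negative (median -1.36 against 0.00 over all tested genes, 50.6% of which were positive). This comparison shares the PS19 libraries with the one above, and the same limits on the choice of the 8 genes hold. H2-Ob fell to 0.201 of its PS19 level (log2 -2.31 ± 0.42, edgeR adjusted p = 0.0109), with no overlap. It reached the level of the low-count filter in 4 PS19 and 0 PS19_p16KO libraries. It was thus tested through the group in which it was high, and with no filter its adjusted p was 0.00253. The call ended without PS19 library 2 (adjusted p = 0.0521), PS19_p16KO library 2 (0.0584) or PS19_p16KO library 4 (0.0514), and with only these 2 groups in the fit (0.0863).

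The other changes missed the threshold with edgeR. They were -1.76 ± 0.44 for Cd74 (adjusted p = 0.108), -1.45 ± 0.38 for H2-Aa (0.0974), -1.44 ± 0.44 for H2-Ab1 (0.190), and -1.28 ± 0.45 for Ciita (0.284). Ciita was the other gene with no overlap, all PS19_p16KO libraries being at or below 0.429 CPM and all PS19 libraries at or above 0.488 CPM, which 2.52% of tested genes showed in this direction. Ciita reached the filter level in 3 PS19 and 0 PS19_p16KO libraries, so its place among the tested genes rests in part on PS19. For H2-Eb1 (-0.79 ± 0.43), H2-DMb1 (-0.46 ± 0.35) and H2-DMa (0.02 ± 0.09) the changes were smaller, with adjusted p of 0.660, 0.780 and 0.987. These counts depended on PS19 library 3 and on the test used. Without it 4 genes fell, namely Cd74 (log2 -2.07, adjusted p = 0.00178), H2-Aa (-1.73, 0.00425), H2-Ab1 (-1.71, 0.0269) and H2-Ob, when the share of all tested genes called lower was 1.93%. Without PS19_p16KO library 3, H2-Aa also passed (-1.81, adjusted p = 0.0480). With DESeq2 on all 16 libraries Cd74 (log2 -1.76, DESeq2 adjusted p = 0.0079), H2-Aa (-1.45, 0.0180) and H2-Ab1 (-1.44, 0.0369) passed too. DESeq2 then called 1.52% of the genes it tested lower.

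The interaction compares the PS19 effect with p16 knocked out to that with p16 intact. None of the 8 genes passed, against 0.00611% of tested genes, which is 1 gene. At an unadjusted p under 0.05 there were 4 of the 8, against 5.44% of tested genes, and DESeq2 called 1 of the 8, H2-Ob, lower (adjusted p = 0.0301), as it did 0.544% of the genes it tested. The estimate was -2.70 ± 0.62 for H2-Ob (edgeR adjusted p = 0.131), -2.17 ± 0.64 for Cd74 (0.368) and -1.67 ± 0.55 for H2-Aa (0.427). Without PS19 library 3 these 3 genes passed, with adjusted p of 0.0259, 0.0118 and 0.0406, and 0.947% of tested genes were called with a negative estimate.

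The p16 knockout without the transgene called none of the 8 genes against WT, and 0% of all tested genes by edgeR. At an unadjusted p under 0.05 there were 653 genes (3.99%), none of the 8 among them, and DESeq2 called 18 genes and limma-voom 10. The largest fitted changes were -0.49 ± 0.45 for Ciita and 0.44 ± 0.36 for H2-DMb1. None of the 8 was called between PS19_p16KO and p16KO, with 0.0183% of tested genes called, or between PS19_p16KO and WT, with 0.0366% called. Cd74, at 5.32 CPM ± 1.48 in p16KO and 5.63 ± 2.68 in PS19_p16KO, differed between them by 0.08 ± 0.45 on the log2 scale, and H2-DMa by 0.23 ± 0.09 (edgeR adjusted p = 0.999 for both).

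In order of group means, PS19 was the highest for 7 of the 8 genes. For H2-DMa PS19_p16KO was highest, and its highest group mean was 1.17 times the lowest, against 5.06 times for H2-Ob and 4.74 times for Cd74. WT was the lowest for Cd74, H2-Ab1, H2-Eb1 and H2-DMb1, and PS19_p16KO for H2-Aa, H2-Ob and Ciita. Among WT, p16KO and PS19_p16KO no neighbours in these orders differed past the threshold. PS19_p16KO came next below PS19 for Cd74 and H2-Ab1, with overlapping libraries and no call, and p16KO for H2-Aa, H2-Eb1, H2-DMb1 and H2-Ob. That last pair was not tested and did not overlap for H2-Ob, and the share of all tested genes without overlap there was not computed. Parts of the order changed without the 3 choroid-plexus-rich libraries. H2-Ab1 (log2 -0.09) and H2-Eb1 (-0.19) were then lower in PS19_p16KO than in WT, and H2-Ab1 (-0.16) was lower in p16KO than in WT. Cd74 was then lower in PS19_p16KO than in p16KO (-0.13).

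**Figure D3:**
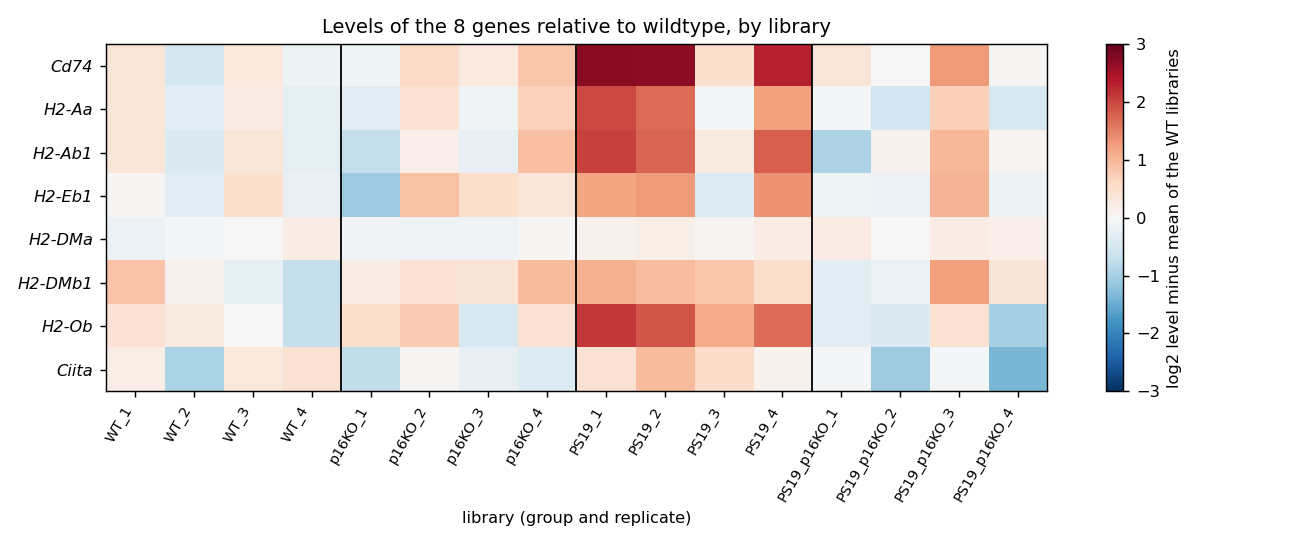
Log2 level of each gene (rows) in each library (columns, grouped by genotype) minus the mean of the 4 WT libraries, in log2 units on a colour scale from -3 (blue) to 3 (red). PS19 libraries 1, 2 and 4 are red for Cd74, H2-Aa, H2-Ab1, H2-Eb1 and H2-Ob, PS19 library 3 is pale except for H2-Ob and H2-DMb1, and the H2-DMa row is pale throughout.

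Per kilobase of exon, taken over all annotated exons of a gene, H2-DMa had the highest level of the 8 in WT (3.45 CPM per kb), p16KO (3.27) and PS19_p16KO (3.83). That length need not be the length of the transcript expressed here, and the part of Brd2 in the H2-DMa count was not tested. Cd74 came next in those groups, with 2.40, 3.17 and 3.35 CPM per kb, and was highest in PS19 with 11.4 CPM per kb. The presenting chains were lower, at 0.356 CPM per kb for H2-Aa, 0.622 for H2-Ab1 and 0.965 for H2-Eb1 in WT. H2-Ob and Ciita were the lowest in every group, with 0.0627 and 0.0504 CPM per kb in WT. The log2 difference of Cd74 to H2-Aa was 1.49 ± 0.15 in WT (SD, n = 4), 1.71 ± 0.12 in p16KO, 2.31 ± 0.26 in PS19 and 2.0 ± 0.09 in PS19_p16KO. The lowest values of p16KO (1.62), PS19 (1.99) and PS19_p16KO (1.88) were all above the highest WT value, 1.61. For p16KO the gap was small (1.623 against 1.611), and H2-Aa had only 16 to 103 counts per library. How often other gene pairs separate the groups in this way was not tested.

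The genes of the factors that act with CIITA differed little between PS19 and WT. Of 14 genes of class II transcription, 13 were tested and none passed, with a median change of 0.06 on the log2 scale. Rfx5, which encodes an RFX subunit that binds the X box, had 18.7 CPM ± 1.34 in WT and 18.2 ± 1.31 in PS19. The smallest adjusted p belonged to Ifngr1, a chain of the interferon gamma receptor (log2 0.40 ± 0.12, adjusted p = 0.108). Nfyc, an NF-Y subunit (log2 0.13 ± 0.09, adjusted p = 0.744) and Creb1 (-0.09 ± 0.06, 0.745) did not pass either. The gene of the cytokine itself, Ifng, had 2 to 4 counts per group.

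Among 9 genes of peptide processing and traffic, 4 rose in PS19 against WT. Ctss, the protease that trims the invariant chain, had 37.3 to 51.4 CPM in WT and 190, 150, 70.7 and 120 CPM in PS19 libraries 1 to 4 (log2 1.58 ± 0.24, edgeR adjusted p = 0.00461). Its PS19 libraries fall in the order of those of Cd74, with library 3 lowest, but here library 3 was above all WT libraries. The others were Ctsb, a lysosomal protease (log2 0.40, adjusted p = 0.00549), Ifi30, the lysosomal thiol reductase that unfolds antigens (1.17, 0.0284), and Lgmn, an endosomal protease that also cuts the invariant chain (0.48, 0.0411). Against PS19, Ctss fell in PS19_p16KO (log2 -1.30 ± 0.24, adjusted p = 0.0255), and it was the only called gene of the 9.

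Of 7 genes of class II and invariant chain partners, 5 were tested and 1 rose in PS19. This was Lag3, an inhibitory receptor for class II, with 3.96 to 5.0 CPM in WT and 46.9, 27.5, 10.3 and 20.1 CPM in PS19 (log2 2.53 ± 0.35, adjusted p = 0.00221). It fell in PS19_p16KO against PS19 (log2 -2.0 ± 0.34, adjusted p = 0.0171). Cd44, the signalling partner of the invariant chain, was spread from 5.12 to 18.8 CPM in PS19 (log2 0.84 ± 0.26, adjusted p = 0.172). Mif and Ddt, whose products bind the invariant chain, had changes of 0.10 ± 0.07 (adjusted p = 0.735) and 0.15 ± 0.11 (0.780). Cd4, the class II coreceptor of T cells, had 17 counts in WT and 17 in PS19. Of 4 tested costimulation genes 2 rose, Cd86 (log2 1.23 ± 0.28, adjusted p = 0.0269), which fell in PS19_p16KO against PS19 (-1.26 ± 0.29, 0.0377), and Icosl (0.49 ± 0.10, 0.0102). Cd83 (0.39 ± 0.10, 0.0504) and Cd274 (0.55 ± 0.18, 0.202) did not pass.

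General microglial genes moved with the class II genes. In a list of 12, 10 rose in PS19 against WT, with a median change of 1.22 on the log2 scale, among them Tyrobp, an adaptor of activating receptors (1.65 ± 0.23, edgeR adjusted p = 0.00117), Ly86 (1.67 ± 0.25, 0.00204), Fcgr3, an antibody receptor (1.33 ± 0.19, 0.000763), and Laptm5 (1.12 ± 0.15, 0.00110). None of the 12 was at 0 in a group. Their summed level was 154 to 175 CPM in WT, 173 to 206 in p16KO, 226 to 449 in PS19 and 180 to 215 in PS19_p16KO, and PS19 library 3 was the lowest of its group. In a list of 10 disease-associated microglial genes 6 rose, led by Ccl6 (log2 3.07), Clec7a (3.79), Cst7 (5.08) and Itgax (4.22), and in a list of 10 homeostatic genes 4 rose, among them Cx3cr1 (0.65), Fcrls (1.20) and Gpr34 (0.66). In PS19_p16KO against PS19, 6 of 12 general, 6 of 10 disease-associated and 1 of 10 homeostatic genes fell. In bulk tissue, more cells of a type and more RNA per cell cannot be told apart.

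To set Cd74 beside the general microglial genes, its log2 level was taken minus the mean log2 level of the 12 general genes. The difference was -0.78 ± 0.45 (SD, n = 4) in WT, -0.57 ± 0.50 in p16KO, 0.16 ± 0.64 in PS19 and -0.63 ± 0.50 in PS19_p16KO. PS19 exceeded WT by 0.94 (two-sided exact permutation test, p = 0.0857, 0.214 adjusted over 5 comparisons), and PS19_p16KO differed from PS19 by -0.79 (exact p = 0.0571, adjusted 0.214). The p of the remaining comparisons was 0.514 or more. The smallest p that 4 against 4 libraries allow is 0.0286, which becomes 0.143 after adjustment over 5 comparisons where a single one reaches it, so a single comparison could not pass. Only Cd74 was tested in this way. In WT and PS19 the means were -2.27 and -2.15 for H2-Aa, -2.06 and -1.69 for H2-Ab1, and -4.02 and -3.42 for H2-Ob. They went the other way for H2-Eb1 (-1.83 and -2.08), H2-DMb1 (-2.60 and -2.87), Ciita (-3.65 and -4.23) and H2-DMa (0.80 and -0.16).

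**Figure D4:**
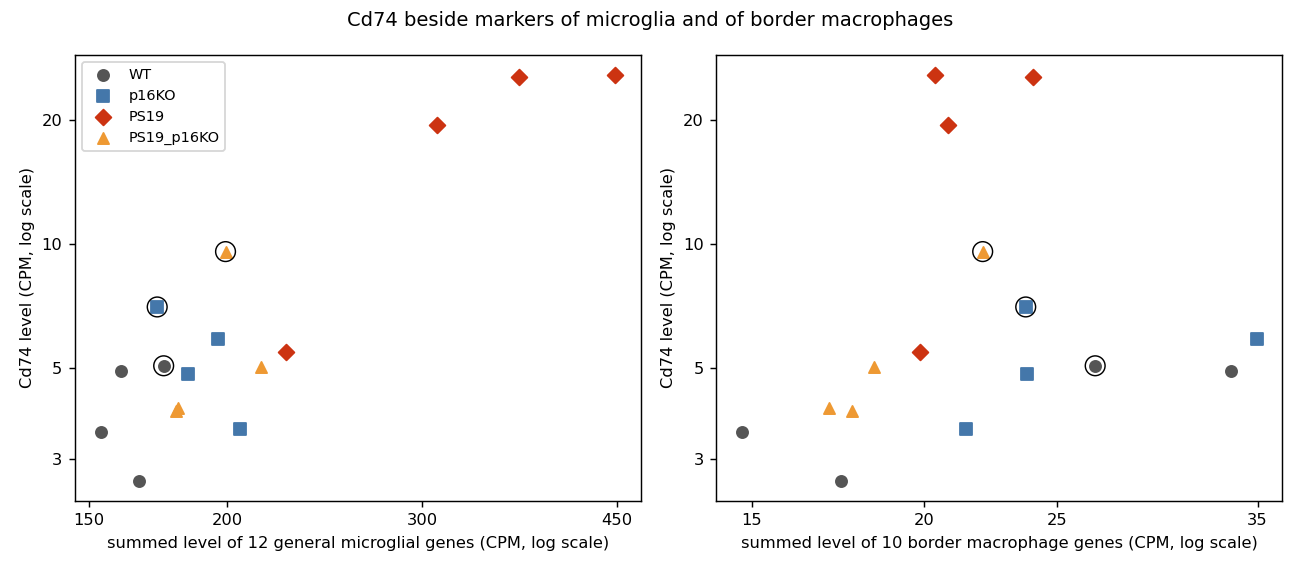
Cd74 level (vertical axis, CPM, log scale) against the summed level (horizontal axis, CPM, log scale) of 12 general microglial genes (left) and of 10 border macrophage genes (right), 1 point per library, with rings around the 3 libraries rich in choroid plexus RNA. PS19 libraries 1, 2 and 4 stand at the top right on the left panel, above 300 CPM of microglial genes, while on the right they lie within the 14.8 to 34.9 CPM that all libraries span.

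Of the markers of other cells that carry class II, none was called. Of 10 border macrophage genes 7 were tested and none was called in PS19 against WT (median -0.19 on the log2 scale), including Mrc1 (-0.39 ± 0.45, adjusted p = 0.882), Lyve1 (-0.63 ± 0.43, 0.741), Cbr2 (-0.84 ± 0.66, 0.795) and Cd163 (-0.19 ± 0.27, 0.912). Their summed level was 14.8 to 33.5 CPM in WT, 21.5 to 34.9 in p16KO, 19.9 to 24.0 in PS19 and 17.1 to 22.1 in PS19_p16KO, and none was at 0 in a group. Of 9 dendritic cell genes 4 were tested and none was called, and the sum was 15.8 to 19.5 CPM in WT and 13.8 to 15.7 in PS19, with none at 0 in these groups. Zbtb46 was at -0.23 ± 0.11 (adjusted p = 0.529), Flt3 at -0.18 ± 0.15 (0.808), Clec9a at -0.62 ± 0.42 (0.738) and Batf3 at 0.11 ± 0.41 (0.972).

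H2-Ob is best known from B cells. Of 8 B cell genes 2 were tested and none was called, and the sum of all 8 was 5.95 to 25.9 CPM in WT (median 10.9) and 7.92 to 12.9 CPM in PS19 (median 12.1), with Ighm, an antibody heavy chain, at 0.36 ± 0.20 (adjusted p = 0.623). The 5 that are not immunoglobulins summed to 0.450 to 1.47 CPM in WT and 0.269 to 0.646 CPM in PS19. Igkc, an antibody light chain, was at 15.6 CPM in a single WT library and had a fitted change of -3.80 ± 1.20 (adjusted p = 0.218). T cell genes summed to 2.92 to 3.11 CPM in WT and 3.18 to 4.09 in PS19, with none of 2 tested genes called, Trac (-0.09 ± 0.35, 0.973) and Lck (-0.05 ± 0.27, 0.980). Monocyte and neutrophil genes summed to 1.98 to 2.34 CPM in WT and 0.901 to 1.47 in PS19, with S100a9 at -1.03 ± 0.40 (0.340) and Plac8 at -0.41 ± 0.38 (0.842). Hippocampal neuron genes, which check the tissue, summed to 2777 to 3543 CPM over all libraries, and none of 8 was called.

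The choroid plexus list had a median change of -1.60 between PS19 and WT and none of its 10 genes was called, the leading ones being Ttr (-3.38 ± 2.37, adjusted p = 0.762), Kcnj13 (-2.92 ± 2.46, 0.818), Slc4a5 (-2.75 ± 2.68, 0.857) and Folr1 (-1.61 ± 1.76, 0.878). Without the 3 libraries rich in it, 5 of the 8 class II genes rose in PS19 against WT. They were Cd74 (log2 2.38, adjusted p = 0.0428), H2-Aa (1.55, 0.0428), H2-Ab1 (1.75, 0.0342), H2-DMb1 (1.15, 0.0447) and H2-Ob (2.11, 0.0187), when 1.89% of all tested genes were called higher. Between PS19_p16KO and PS19 the choroid plexus list had a median change of 3.56, with none called. Without the same 3 libraries H2-Ob still fell there (-2.75, 0.0237), Cd74 was at -2.14 (0.119) and H2-Aa at -1.81 (0.0550).

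Across the 16 libraries, the genes most like Cd74 were found by Pearson's r of log2 CPM among 13354 tested genes. The 10 closest were Arpc1b (0.968), H2-Aa (0.958), Itgb5 (0.956), Lyz2 (0.950), Ftl1 (0.949), Cd9 (0.945), Ctsd (0.945), Hexa (0.944), Clu (0.942) and Cxcl16 (0.941). The values describe these libraries, which share the split between PS19 and the rest. Without PS19 libraries 1 and 2, the farthest in Cd74, r was 0.853 to 0.928 for these genes, and Spearman's rho over all 16 was 0.762 to 0.932. Over the 12 libraries outside PS19, r was 0.863 for H2-Aa, 0.852 for Cd9, 0.827 for Arpc1b and 0.650 for Hexa. The closest to H2-Aa were Cd74, Abca1 (0.947), Icam1 (0.930), Arpc1b (0.927) and Ctsd (0.927).

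Among the 8 genes, r with Cd74 over the 16 libraries was 0.915 for H2-Ab1, 0.835 for H2-Eb1, 0.826 for H2-Ob, 0.615 for H2-DMb1, 0.588 for Ciita and 0.444 for H2-DMa. Over the 12 libraries outside PS19 it was 0.714 for H2-Ab1 and 0.780 for H2-Eb1, and lower for H2-Ob (0.394), Ciita (0.397) and H2-DMa (0.208). The H2-DM chains had an r of -0.06 with each other, with H2-DMa the gene least like the rest.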

How the data were processed

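The authors deposited raw counts per gene for 16 libraries in a single table. A commercial provider made the libraries from column-purified total RNA, per the labels' protocols. The build was GRCm38 and the tools named were DESeq2, Subread 1.5.2, featureCounts, STAR 2.5.2b and Trimmomatic 0.36, per the submitters' processing notes. The sources used here do not give what each tool did, the annotation release or the strand setting.

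The table has 49671 gene rows, of which 49326 matched a symbol in GENCODE vM21 (GRCm38), and 92 spike-in rows, which held 0.574% to 1.06% of a library's counts and were left out. Levels are CPM after TMM scaling, and log2 levels add a prior count of 2. edgeR 4.0.16 in R 4.3.3 fitted all 16 libraries with a mean per group (filterByExpr, minimum count 10, robust quasi-likelihood, no block). P-values were adjusted by Benjamini and Hochberg over 16372 genes, with a threshold of 0.05, in 6 comparisons. The script was tested on simulated data. Replicates differed by more than sampling noise (chi-square per degree of freedom 4.72 to 25.4). The members, the gene lists and the tests were chosen with earlier results of these data known. Apart from the 8 genes and the class II paralogs, up to 4 genes per list with the smallest adjusted p in PS19 against WT were named, and the 10 genes most like Cd74 and 5 most like H2-Aa among genes above a mean log2 CPM of 0. Some genes that this rule names are left out here. Rfx5, Ifng, Cd4 and the genes that overlap a member were named after their values were seen.

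Alternatives were DESeq2 1.42.0, limma-voom (limma 3.58.1), RLE scaling, no filter, a replicate block, a batch term from the leading digit of the library-name suffix, only the compared groups, no choroid-plexus-rich libraries, and each library left out in turn. The meaning of that suffix is not given in the labels.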

Additional observations from a re-analysis of the deposited data

Results flagged for a closer look

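Each gene was checked in each group of 4 libraries for a library far from the others, 32 checks in all, and chance alone picks out about 1 in 20. There were 3. H2-Eb1 in PS19 library 3, at 1.35 CPM, lay below the other PS19 libraries by 0.834 of the group's range, the library that was also lowest in PS19 for Cd74, H2-Aa, H2-Ab1, H2-DMa and H2-Ob. H2-Eb1 in PS19_p16KO library 3, at 3.81 CPM, lay above the others of its group by 0.966 of the range, and this library was rich in choroid plexus RNA. H2-DMa in p16KO library 4, at 12.1 CPM, lay above the others of its group by 0.864 of a range that spans only 10.95 to 12.1 CPM, and this library was also rich in choroid plexus RNA. The part of choroid plexus RNA in these values was not tested.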

How the results depend on the processing

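Of the 8 genes, 2 were called in PS19 against WT with the settings above, 4 with DESeq2, 5 without the 3 choroid-plexus-rich libraries, and 1 each with limma-voom, the replicate block, the suffix batch term and only the compared groups. The 4 with DESeq2 included H2-Aa and H2-Ab1, when 2.34% of the genes it tested were called higher. Of all tested genes, 1.56% were called higher with the settings above and 1.89% without the choroid-plexus-rich libraries. That share was 1.39% with limma-voom and with the suffix batch term, 1.41% with the replicate block and 0.429% with only the compared groups. Leaving out a library gave 0 to 4, with 4 without PS19 library 3 and 0 without PS19 library 1, PS19 library 2 or WT library 4. In that order, 2.55%, 0.724%, 0.756% and 0.978% of tested genes were called higher. In PS19_p16KO against PS19 the count of 1 became 4 with DESeq2 and 0 with only the compared groups, and 0 to 4 with a library left out. Of tested genes, 0.776% were called lower with the settings above, 1.52% with DESeq2 and 0.0382% with only the compared groups. The share was 1.93% without PS19 library 3, which gave 4, and 0.163% to 0.235% where leaving out a library gave 0. In the interaction the count of 0 became 1 with DESeq2 and 0 to 3 with a library left out. A negative estimate was called for 0.544% of tested genes with DESeq2 and for 0.947% without PS19 library 3, which gave 3. Over all genes, PS19 against WT gave 264 calls, 70 with only the compared groups, and 124 to 438 with a library left out. PS19_p16KO against PS19 gave 135, and 278 with DESeq2, 87 with the suffix term, 8 with only the compared groups, 62 without the choroid-plexus-rich libraries, and 29 to 347 with a library left out. The comparison of p16KO with WT gave 0, and 18 with DESeq2, 10 with limma-voom, 4 with no filter, 9 with only the compared groups, 7 without the choroid-plexus-rich libraries, and 0 to 8 with a library left out. PS19_p16KO against p16KO gave 3, 7 with DESeq2, and 2 to 5 with a library left out. PS19_p16KO against WT gave 6, and 32 with DESeq2, 10 with limma-voom, 15 with no filter, 27 without the choroid-plexus-rich libraries, and 4 to 16 with a library left out. The interaction gave 1, and 6 with RLE scaling, 88 with DESeq2, 0 with limma-voom, 20 with no filter, 5 with the replicate block, 13 with the suffix term, and 1 to 160 with a library left out. The causes were not tested. With the replicate block, Cd74 lost its call in PS19 against WT (adjusted p = 0.0898), as with the suffix term (0.0611), while H2-Ob kept it. Same-numbered libraries did not deviate together: over 24 pairs r was -0.388 to 0.223, and 6 exceeded 0.1. No called change turned direction under any alternative run. Depth limits H2-Ob and Ciita most, with 184 and 140 counts in all.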
